A study of Homo sapiens with 9 samples.

Results

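The genes described here are the transcribed genes of 10 to 50 kb in the gene list deposited with an H2BK120Ub ChIP-seq series in RPE1 cells. They were selected on 2 measured columns of the list of 9588 genes, a length of at least 10000 bp and under 50000 bp and a BrU-seq density of at least 15 in the first 3 kb. This gave 1535 genes, which were 34.7% of the 4423 listed genes of this length and the largest share of the 3000 listed genes that reached the same density. Of the other transcribed genes, 546 were under 10 kb (20.1% of the listed genes of that length), 529 were 50 to 100 kb (39.2%) and 390 were at least 100 kb long (35.5%). Over the whole list the share was 31.3%. Because length and BrU density chose the genes, both are given below as a description only.

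RPE1 is an established human line of retinal pigment epithelial cells immortalized with hTERT. The ChIP-seq libraries all came from 1 genotype, RPE1 iCas9 p53/puro-dKO, by its name a line with inducible Cas9 and a double knockout of p53 and the puromycin gene. Mock cells gave 2 libraries and 1 input library, cells irradiated with UV-C (9 J/m2) gave 2 libraries after 3 h of recovery and 4 after 24 h. The deposited list holds 1 BrU value for each gene and no value of a ChIP-seq library, so neither the response to UV nor the ubiquitin mark was measured here. The BrU values come from unirradiated WT cells of an earlier study, the number of libraries behind them is not given in the sources used here, and the p53 status of those cells is not given in the sources used here.

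BrU-seq sequences RNA that took up bromouridine during a short pulse, so a high density near the start of a gene shows that RNA polymerase II (RNAPII) enters that gene often. Ubiquitin is placed on lysine 120 of histone H2B behind elongating RNAPII by RNF20 and RNF40 with the conjugating enzymes UBE2A and UBE2B, and the PAF1 complex promotes this step. UV-C joins neighbouring pyrimidines into lesions that stop RNAPII when they lie in the transcribed strand, so the length of a gene sets how many such sites a polymerase must pass.

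Of the 6 protein-coding genes with the highest BrU density among those whose listed start is that of an annotated transcript, 5 show here what the start sites of these genes look like. Each sequence is on GRCh38 and runs 5′ to 3′ on the strand of the gene, from 120 bases before the transcription start site (TSS) through the first 20 transcribed bases, and was read from the genome at the listed coordinates. Capitals mark matches, on either strand, to 5 short motifs, and neighbouring matches may overlap. The TATA box was searched as TATAAA. The CCAAT box was searched as its own name spells it. The GC box was searched as GGGCGG. The ETS site was searched as CCGGAAG. The core of the cyclic AMP response element (CRE) was searched as TGACG.
STC2, chr5:173328395-173328534, minus strand: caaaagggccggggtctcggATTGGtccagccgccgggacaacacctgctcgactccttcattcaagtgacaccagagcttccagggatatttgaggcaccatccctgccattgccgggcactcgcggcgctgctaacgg
SRSF3, chr6:36594242-36594381, plus strand: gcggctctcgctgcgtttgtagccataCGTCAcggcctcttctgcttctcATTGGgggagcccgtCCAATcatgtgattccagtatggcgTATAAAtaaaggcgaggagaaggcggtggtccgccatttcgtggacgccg
F3, chr1:94541740-94541879, minus strand: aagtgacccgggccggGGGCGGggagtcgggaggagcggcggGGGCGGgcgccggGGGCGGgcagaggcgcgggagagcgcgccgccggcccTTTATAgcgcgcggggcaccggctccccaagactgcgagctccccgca
ZFAND5, chr9:72365189-72365328, minus strand: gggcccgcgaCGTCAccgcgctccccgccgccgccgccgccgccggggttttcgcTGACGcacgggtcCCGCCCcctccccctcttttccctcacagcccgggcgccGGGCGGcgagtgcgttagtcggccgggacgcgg
PRSS23, chr11:86800422-86800561, plus strand: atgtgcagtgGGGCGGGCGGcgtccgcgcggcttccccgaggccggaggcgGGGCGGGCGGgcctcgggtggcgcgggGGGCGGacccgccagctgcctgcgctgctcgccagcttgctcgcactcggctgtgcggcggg

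The letters TATAAA begin 30 bases before the TSS in SRSF3. In F3 the match begins 28 bases before the TSS and reads on the other strand. SRSF3 has 2 CCAAT matches and 1 CRE core upstream of its TATA box, whereas STC2 has a single CCAAT match, 100 bases before the TSS. F3 carries 3 GC boxes and PRSS23 carries 5, of which 4 form overlapping pairs. ZFAND5 has 2 GC boxes and 2 CRE cores. Base composition varied just as widely, since the window of PRSS23 had a GC content of 81.4% and that of SRSF3 57.1%. The ratio of observed to expected CpG was 0.761 in STC2 and 1.14 in SRSF3, where a value near 1 means that CpG is as frequent as the base composition predicts. A match is a description of letters in this window and was not tested as a binding site.

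STC2, the secreted glycoprotein hormone stanniocalcin-2, had the highest BrU density of all genes of this length at 1729. F3 (tissue factor, the starter of the coagulation cascade) had 1124 and PRSS23, a secreted serine protease, had 1027. CCDC80, a protein of the extracellular matrix, had 889.8, and NT5E, the surface enzyme CD73 that makes adenosine from AMP, had 869. These genes also differ in setting. NT5E stands alone, with its nearest listed gene 685484 bp away, and its first intron is 16581 bp long. In CCDC80, 86.3% of the first 3 kb is exonic, against 3.67% in PRSS23.

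Among the 12 genes of highest density were also SRSF3, TRA2B, SFPQ and RBM39, which encode RNA-binding proteins. SRSF3, a splicing factor of the SR family, had 1256. TRA2B, an SR-like splicing regulator, had 849, SFPQ, a paraspeckle protein, had 656, and RBM39, a U2AF-related splicing factor, had 607. The 12 also held ZFAND5, a zinc finger protein that acts with the proteasome, at 1064, and CALM2, one of the calmodulin genes, at 705. The first 3 kb of CALM2 overlap another annotated gene, so the reads behind its value may be shared. Of the 12, 8 were shorter than 17 kb, a line drawn after the values were seen. Over all 1535 genes the lower quartile of length was 16193.5 bp, and the plot shows density against length.

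**Figure D1:**
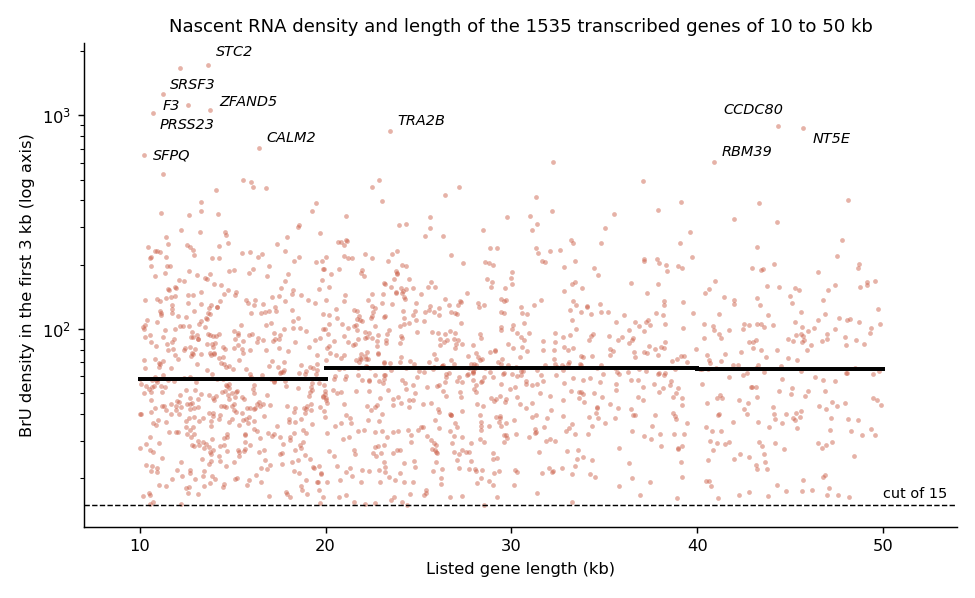
BrU density in the first 3 kb (log axis, authors' density units) against listed gene length in kb for the 1535 transcribed genes of 10 to 50 kb, 1 point per gene, with 11 of the 12 highest named, the median of each 10 kb bin as a black bar and the cut of 15 as a dashed line. The bars lie between 58.1 and 65.6 while single genes reach 1729.

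Across all 1535 genes the BrU density had a median of 63.4, with quartiles at 36.8 and 108. The median was 68.3 in transcribed genes under 10 kb, 67.3 at 50 to 100 kb and 53.8 at 100 kb or more. The classes separated more in their upper range than at the median. A density of at least 200 was reached by 132 genes of 10 to 50 kb, or 8.60%, beside 19.6% of the shorter class and 5.29% and 2.82% of the longer classes. At least 500 was reached by 14 genes, or 0.912%, beside 39 of the 546 genes under 10 kb. Within the 10 to 50 kb range the density showed little relation to length, with a Spearman correlation of 0.0085 and a Pearson correlation of -0.048 over 1535 genes that share the same libraries. Density was related to base composition, with a Spearman correlation of -0.242 to the GC content of the gene. The median GC content went down in order from 45.3% in the lowest 384 genes by density to 41.0% in the highest 384.

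At the lower edge, the last genes inside the cut were ENSG00000267069, a lncRNA gene, at 15.12, and MYO1C, a short-tailed myosin, and TRAF1, a signalling adaptor of TNF receptors, both at 15.04. The first genes outside it were TFAP4, TRIB3 and ZNF331, all at 14.99, which is 1 step of 0.0433 lower, the smallest positive density in the list. Below the cut lay 1202 genes of the same length with a density above 0 and 1652 listed at 0, and 34 had no value. The shortest gene chosen was PIF1, a DNA helicase, with 10016 bp and a density of 39.8. The longest was AGO4, an Argonaute protein of RNA silencing, with 49875 bp and a density of 43.9.

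The list does not hold every gene of this length. Of 8205 annotated protein-coding genes with a canonical transcript of 10 to 50 kb, 2986 were listed (36.4%) and 1442 were also transcribed (17.6%), so a gene that is missing here may still be transcribed. Within the range, 28.9% of the listed genes of 10 to 20 kb reached the cut and between 38.9% and 39.7% in the next bins of 10 kb, and these bins held 564, 467, 285 and 219 genes. The median number of exons went from 5.5 in the first bin to 10.5 in the last.

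The cell type of the label was checked on its markers. Of the retinal pigment epithelium markers, 7 were in the list and 1 was transcribed by the cut of 15. This was OTX2, a transcription factor of the eye and forebrain, which is itself one of the genes of 10 to 50 kb (10575 bp) and had 217. RPE65 (0.26), RLBP1 (1.26) and LRAT (0.997), which serve the visual cycle, lay near 0, as did the pigment cell gene MLANA at 0.0867. MITF, the regulator of pigment genes, had 13.3, just under the cut, and TTR was listed at 0. COL1A1, a fibrillar collagen of mesenchymal cells, was among the chosen genes with 25.8, and COL1A2 was listed at 0. The 3 listed markers of blood and the 3 of liver were all under the cut. SNAP25, a synaptic gene of 88589 bp, reached the cut at 18.4. LGALS1, a short gene of mesenchymal cells, had 1505.

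Gene type followed length in part. Of the 1535 genes, 1442 were protein-coding, or 93.9% (exact binomial 95% interval 92.6 to 95.1, which covers counting only), and 87 were lncRNA genes. The protein-coding share was 82.6% (79.2 to 85.7) in transcribed genes under 10 kb, 94.1% at 50 to 100 kb and 93.1% at 100 kb or more. Among all listed genes of 10 to 50 kb, 48.3% of the 2985 protein-coding genes and 6.25% of the 1391 lncRNA genes reached the cut. The 87 lncRNA genes had a median density of 32.0 and a median of 3 exons. Their start windows had a median CpG ratio of 0.486, against 0.908 in the protein-coding genes. The first 3 kb of 43.7% of them overlapped another annotated gene, against 14.8% of the protein-coding genes, so that more of the lncRNA values may hold reads of a second gene. OIP5-AS1, a conserved lncRNA named here after its value was seen, had 203.

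The structure of the genes followed their length. Structure was read from a transcript with the listed start and end, which 1483 of the 1535 genes had. It had a median of 7 exons, beside 3, 12 and 17 in the classes under 10 kb, 50 to 100 kb and at least 100 kb. Exons made up 13.2% of the gene at the median, between 35.9% in the shorter class and 6.90% and 3.44% in the longer ones. The first intron had a median of 4066 bp, and in 885 of 1482 genes with an intron it was longer than 3 kb. In the first 3 kb, over which BrU was counted, the exonic share had a median of 7.87%, close to the 7.67% and 8.5% of the longer classes and below the 18.6% of genes under 10 kb. The BrU window thus covered mostly intron in genes of 10 kb or more, and it took in 6.02% to 30.0% of a gene of 10 to 50 kb. The median gene held 1913 TT dinucleotides on its transcribed strand, the main site of UV-induced pyrimidine dimers, beside 414 in genes under 10 kb and 5946 and 13363 in the longer classes.

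Strand was close to balanced. Of the genes, 822 lay on the plus strand, or 53.6% (51.0 to 56.1). The share was 52.0% in genes under 10 kb, 54.3% at 50 to 100 kb, 52.8% at 100 kb or more, and 50.7% in the whole list. The other transcribed classes lay within this interval and the whole list just below it.

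Spacing was widest around the long genes. The authors had kept genes at a distance from each other, so distances between listed genes describe the list as well as the genome. The deposited coordinates do not always keep the stated 2 kb, since 59 of the 1535 genes had a listed gene nearer than that. The nearest listed gene lay at a median of 31088 bp (interval of the median 27983 to 34869) from genes of 10 to 50 kb, 34820 bp from shorter genes, 40318 bp at 50 to 100 kb and 63853 bp at 100 kb or more. Taking every annotated protein-coding gene in place of the listed ones, the medians were 6770 bp, 4174 bp, 10229 bp and 17868 bp in the same order. The nearest listed neighbour pointed the same way for 810 genes (52.8%), head to head for 345 (22.5%) and tail to tail for 350 (22.8%), while 30 overlapped it. The share pointing the same way went from 54.2% in genes under 10 kb to 45.9% at 100 kb or more.

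Some of these genes are neighbours of each other, in 221 pairs of which 129 pointed the same way, 56 head to head and 36 tail to tail. In the closest pairs the 2 densities ranged from alike to several times apart. LRRC66 and SGCB, a subunit of the sarcoglycan complex of muscle membranes, lie 342 bp apart on the minus strand of chromosome 4, and had 40.04 and 62.7. PRDX3, a mitochondrial peroxiredoxin, had 230.4, and SFXN4, 2005 bp away on the same strand of chromosome 10, had 33.5. SGTA, a chaperone adaptor, and THOP1, a peptidase, were the closest head-to-head pair, 2229 bp apart on chromosome 19, with 65.8 and 48.1. AP1S2 and ZRSR2 on the X chromosome, tail to tail at 2545 bp, had 26.3 and 46.3.

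A divergent start, here an annotated protein-coding or lncRNA gene that starts on the opposite strand within 1 kb upstream, was found at 233 genes, or 15.2% (13.4 to 17.1). The share was also 15.2% in shorter genes and 15.5% at 50 to 100 kb, and it was 11.0% (8.10 to 14.6) at 100 kb or more. In listed genes of 10 to 50 kb under the BrU cut it was 3.64%. Of those with an annotated type, 45.4% were lncRNA genes, beside 5.67% of the 1535, and gene type was not held equal. The partner was a lncRNA gene at 127 starts and a protein-coding gene at 106, at a median distance of 144 bp. F3 and ZFAND5 are examples with lncRNA partners, 178 and 215 bp away. Genes with a divergent start had a median density of 70.6 and the others 62.2.

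The start windows of the genes of 10 to 50 kb were rich in GC and CpG, with medians of 67.9% GC and a CpG ratio of 0.897. Listed genes of the same length under the cut had 52.1% and 0.308. That group held 45.4% lncRNA genes against 5.67% of the 1535, so this contrast mixes gene type with BrU density. Transcribed genes of other lengths had CpG ratios of 0.860 under 10 kb, 0.904 at 50 to 100 kb and 0.915 at 100 kb or more.

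Some motif letters changed in frequency with gene length, as the plot of start window letters shows. The TATA box was found in 44 genes of 10 to 50 kb, or 2.87% (2.09 to 3.83), beside 5.68% (3.89 to 7.96) of transcribed genes under 10 kb, 1.32% at 50 to 100 kb and 1 of 390 genes at 100 kb or more. It was found in 9.04% of the genes of this length under the cut and in 7.68% of all listed genes. Both of these groups held more lncRNA genes, at 45.4% and 35.2%, than the 1535, at 5.67%. Within the range the TATA box share went down from 4.08% at 10 to 20 kb to 3.00%, 1.75% and 0.913% in the next bins. The last of these rests on 2 genes. The ETS site, bound by factors such as GABPA, was found in 17.2% (15.3 to 19.2), beside 18.5%, 13.99% and 7.69% in the other classes in order of length, 2.39% under the cut and 6.38% of all listed genes. The CCAAT box, bound by NF-Y, went the same way, from 31.3% through 27.4% and 24.6% to 17.4%, with 24.3% of all listed genes. The GC box, bound by SP1, went the other way, from 51.5% through 60.8% and 62.4% to 64.4%, with 34.5% of all listed genes. The CRE core, bound by CREB and ATF factors, showed no order, at 20.3%, 23.5%, 24.95% and 21.8%, with 14.4% of all listed genes.

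**Figure D2:**
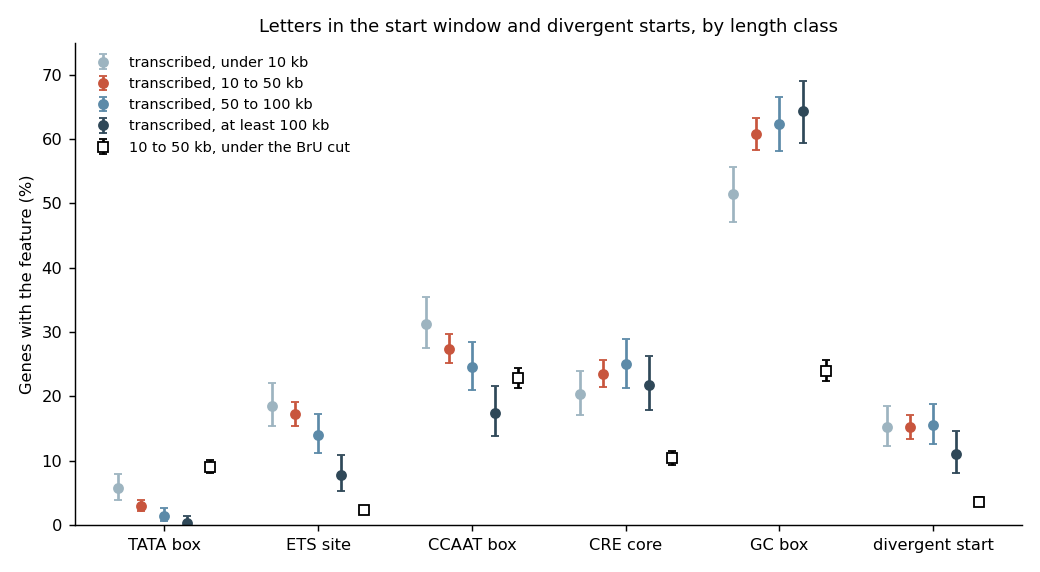
Percent of genes (y axis) with each motif's letters in the start window of 140 bases, or with a divergent start, for the 4 length classes of transcribed genes (circles) and for listed genes of 10 to 50 kb under the BrU cut (squares), with exact binomial 95% intervals that cover counting only. TATA, ETS and CCAAT shares go down and the GC box share goes up with length, and genes of 10 to 50 kb lie second in each of these orders.

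The TATA box was more frequent at the top of the BrU scale. In the 50 genes of highest density, all at 302 or more, 8 had it (16%), beside 2.87% of all 1535. Over the whole range its share had no steady order, with 2.86%, 1.04%, 3.13% and 4.43% in 4 successive groups from low to high density. The 8 included SRSF3, F3, RND3, a small GTPase, CPA4, a secreted carboxypeptidase, FGF5, a growth factor, and ANXA1, the phospholipid-binding annexin A1. NPIPB5, which also had it, belongs to a family of near-identical copies on chromosome 16, so its reads cannot be placed with certainty. The ETS site was found in 1 of these 50 (2.0%), beside 17.2% of all 1535. Over the whole range of densities the ETS share did not follow this, with 13.3%, 19.3%, 20.4% and 15.9% in 4 successive groups of 383 or 384 genes from low to high density, and genes with an ETS site had a median density of 66.6 against 62.6 without. The same 50 genes lay at a median of 79884 bp from the nearest listed gene, beside 31088 bp for all 1535, and 42.0% of them were on the plus strand. The median density of genes with a TATA box was 80.9 and of the others 62.7, and with a CRE core it was 74.6 against 61.2. The CRE core share went from 18.2% in the lowest 384 genes by density to 27.1% in the highest 384.

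The function lists covered 145 of the genes (9.45%). The deposited gene list holds at most part of each, so the counts do not describe whole pathways. It held 4 of 24 annotated genes of sterol synthesis, 8 of 34 of the repair list and 8 of 39 of the PAF1 complex list. Of Mediator it held 7 of 33, of the cytosolic ribosomal proteins 18 of 87 and of the immediate-early genes 19 of 39. Of the 165 listed genes of 10 to 50 kb that belong to any list, 87.9% reached the cut, beside 48.3% of all listed protein-coding genes of this length. This share was full for the proteasome (6 of 6), the mitochondrial ribosome (11 of 11) and the respiratory chain and ATP synthase (11 of 11). It was full too for the aminoacyl-tRNA synthetases (5 of 5), the nuclear pore (4 of 4) and the PAF1 complex list (6 of 6). It was also full for the chaperones (7 of 7), the immediate-early genes (4 of 4), sterol synthesis (4 of 4), the YAP and TEAD targets (3 of 3) and Mediator (2 of 2). It was not full for the cytoskeleton (9 of 17), cytosolic ribosome (3 of 5), RNAPII and general factors (4 of 6) or p53 targets (3 of 4). Nor was it full for translation initiation (11 of 13), cyclins and their kinases (15 of 17), repair (6 of 7), DNA replication (11 of 12), coats and sorting (12 of 13) or splicing (14 of 15). The lists were written with earlier results of these data known, so these counts describe the list genes and support no direction.

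**Figure D3:**
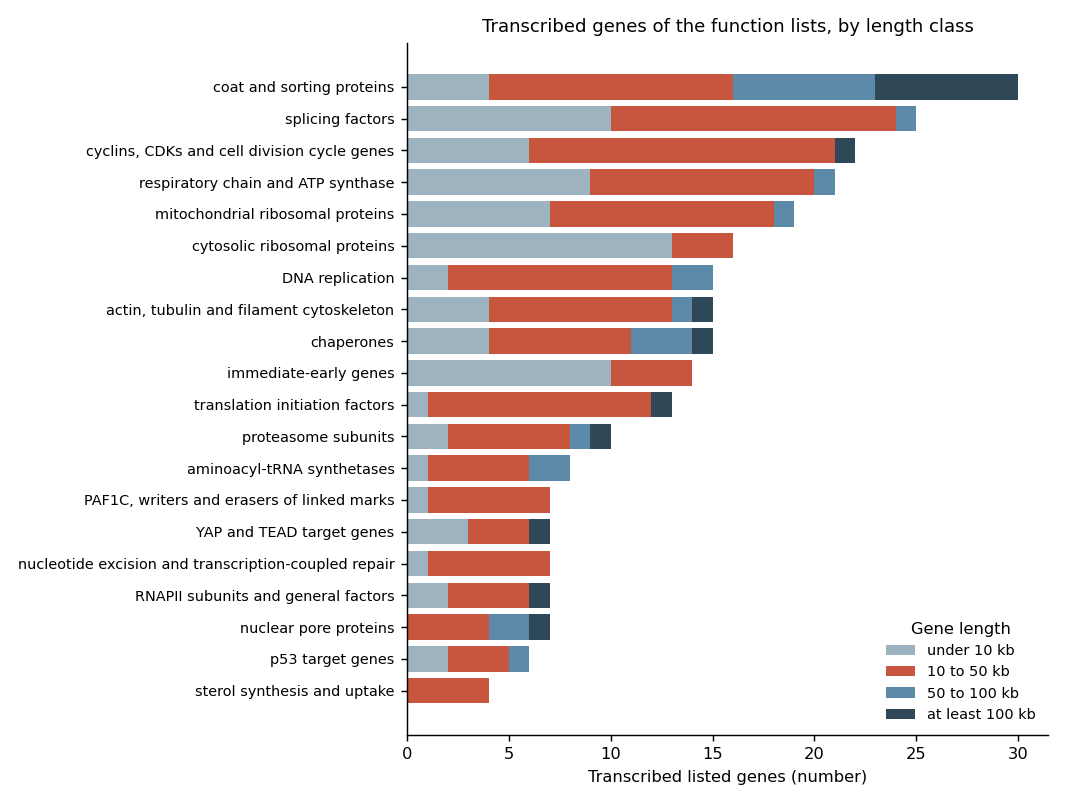
Number of transcribed listed genes (x axis) of each function list with at least 3 genes of 10 to 50 kb, stacked by length class. Genes of 10 to 50 kb (red) make up 11 of 13 translation initiation genes, 3 of 16 cytosolic ribosomal protein genes and 4 of 14 immediate-early genes.

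Over all 3000 transcribed genes, the class of 10 to 50 kb held 51.2%, and the counts of the lists are given beside this share with no test. In the list of translation initiation, 11 of 13 transcribed genes were of 10 to 50 kb, and their median density was 145. The highest was EIF2S2 at 307, the beta subunit of eIF2, followed by EIF3E at 218 and EIF3D at 208. EIF4EBP2 (172) and EIF4EBP1 (85.3) are in the list but encode repressors of eIF4E. Of the cytosolic ribosomal protein genes, 13 of 16 were under 10 kb, and the 3 of 10 to 50 kb were RPL14 (534), RPL22 (283) and RPL39L (62.1). Of the mitochondrial ribosomal protein genes, 11 of 19 were of 10 to 50 kb, with a median of 73.0, led by MRPL37 at 122.

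Splicing factors gave 14 of 25 transcribed genes with a median density of 184. After SRSF3 the highest were SRSF10 at 489.8 and HNRNPR at 285. The lowest, LSM11, at 23.01, belongs to the U7 particle that processes histone transcripts rather than to the spliceosome. The respiratory chain and ATP synthase gave 11 of 21 with a median of 95.8, from COX5A at 32.6 to COX6B1 at 243. ATP5MC2 and ATP5PO, subunits of the ATP synthase, had 231 and 168. Among proteasome subunits, PSMD12 had 171, PSMB2 131 and the activator subunit PSME3 110.3. RARS1 (151), SARS1 (138) and NARS1 (86.9) led the aminoacyl-tRNA synthetases, and NUP54 (120.2), NUP35 (107) and NUP42 (97.3) led the nuclear pore proteins.

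Of the genes for transcription itself, POLR2M, a subunit of the RNAPII form called Pol II(G), had 232, TAF13, a subunit of TFIID, had 89.7 and the initiation factor GTF2B had 72.1. Mediator had 2 of its 7 transcribed genes in this class, MED17 (106) and MED30 (64.1). The chaperones were led by DNAJB12 at 176, HSPA13 at 114 and HSPH1 at 89.8. SEC61A1 at 356, the channel of the endoplasmic reticulum, SEC22B at 298 and SNX33 at 161 led the 12 genes of coats and sorting.

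The nucleotide excision repair and transcription-coupled repair list had 6 of its 7 transcribed genes in the 10 to 50 kb class. This count includes ATF3, which is not a repair factor. CCNH (144), CDK7 (106) and ERCC3 (103), all subunits of TFIIH, and the damage-binding protein XPA (112) lay within a narrow range above the median of all 1535 genes. RPA2, which coats single-stranded DNA, had 39.95. ATF3, a stress-induced repressor of transcription, had 21.8 in these unirradiated cells. GTF2H2, another TFIIH subunit of this length and a gene with near-identical copies, was under the cut at 4.85.

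The list of the PAF1 complex and of the enzymes for the linked marks also had 6 of its 7 transcribed genes in this class. This count includes IWS1 and SUPT5H, which belong neither to the complex nor to the enzymes for the marks. ENY2, of the SAGA module that removes ubiquitin from H2B, had 197. UBE2B, a conjugating enzyme for H2BK120, had 124. The elongation factor IWS1 had 93.1, the PAF1 complex subunits CTR9 and LEO1 had 59.3 and 50.7, and SUPT5H, a subunit of DSIF, had 38.5. SUPT5H lies 4167 bp from TIMM50 on the same strand of chromosome 19, which had 32.0.

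In the list of cyclins, their kinases and cell division cycle genes, 15 of 22 transcribed genes were of 10 to 50 kb, led by CCND1 (cyclin D1) at 395, the repressor E2F7 at 315 and CDK1 at 217, while CCNE1 lay just under the cut at 14.6. DNA replication gave 11 of 15, led by MCM3 at 190.4, GMNN, the inhibitor of origin licensing, at 116 and CDC6, a licensing factor, at 104, and MCM10 was under the cut at 9.1. Of 24 annotated genes of sterol synthesis only 4 were listed. All 4 were transcribed and in this class, with MSMO1 at 227, HSD17B7 at 75.01, MVK at 52.5 and SC5D at 50.3.

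Of 14 transcribed immediate-early genes, 10 were under 10 kb and 4 in this class, DUSP5 at 172, CSRNP1 at 119, MAFF at 30.7 and ATF3. Of the p53 targets, 3 of 6 transcribed genes were of this length, and AEN had 108, TIGAR 39.2 and SESN2 26.3, and FDXR was under the cut at 2.90. Of the YAP and TEAD targets it was 3 of 7, namely F3, NT5E and the kinase NUAK2 at 90.6. Among cytoskeletal genes, 9 of 17 of this length were transcribed, led by KRT80 at 398, LMNA at 273 and ACTR2 at 188, and the other 8 included 6 genes of myosin chains listed at 0. ACTR6 (47.2) and ACTR8 (97.9) are in that list by name but act in chromatin remodelling. None of the 3 listed histone genes was among the 1535, and the list held none of the small nucleolar RNA host genes.

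**Figure D4:**
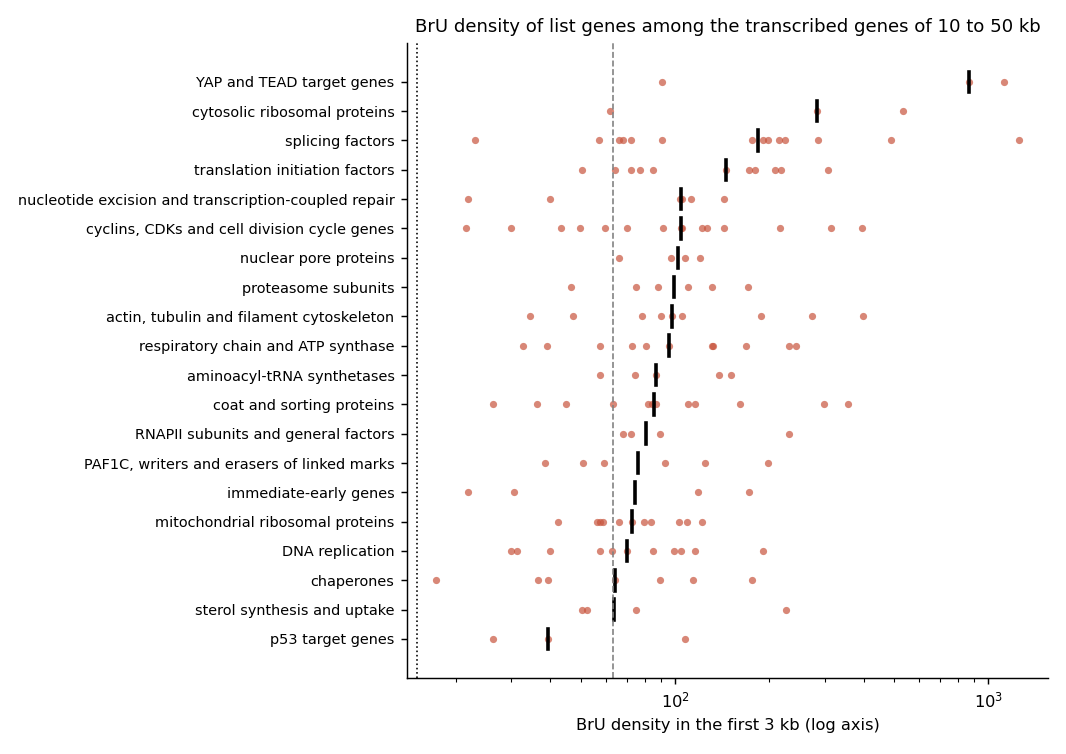
BrU density (log axis, authors' density units) of the genes of 10 to 50 kb in each function list with at least 3 of them, 1 point per gene, with the list median as a black bar, the median of all 1535 genes (63.4) as a grey dashed line and the cut of 15 as a dotted line. The list medians run from 39.2 for p53 targets to 869 for YAP and TEAD targets, which rest on 3 genes each.

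Chromosome 19 stood out in number. It held 121 of the genes, or 7.88%, beside 3.34% of transcribed genes of other lengths. Of its listed genes of 10 to 50 kb, 43.2% reached the cut, beside 34.7% over all chromosomes, 41.8% on chromosome 15 and 41.6% on chromosome 7. Of these 121, 67 were ZNF genes, which encode zinc finger proteins, many of them repressors of transposable elements. The cut was reached by 71.3% of the 94 listed ZNF genes of this length on chromosome 19 and by 29.0% of the 186 others there. The median density on chromosome 19 was 41.0, the lowest of all chromosomes with such genes, and it was 41.0 in the ZNF genes and 40.2 in the others there. Over the genome, 126 of the 152 transcribed ZNF genes were of 10 to 50 kb, with a median of 50.42 and a median of 5 exons, and 70.0% of the listed ZNF genes of this length reached the cut. Solute carrier genes gave 24 of 51 transcribed genes with a median of 50.9, and LINC genes 20 of 49 with a median of 38.0. On chromosome 10 there were 75 genes with a median of 88.8. Medians at or above 84.8 were otherwise found on chromosomes 13 and 18, which held 24 and 22 genes.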

How the data were processed

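Gene starts, strands and lengths, other values in base pairs, were deposited as the authors took them from UCSC knownCanonical. They had been filtered by size and spacing and moved to GRCh38.p14. The stated minimum size is not always kept, since listed lengths go down to 123 bp, and to 200 bp in transcribed genes. In genes shorter than 3 kb the counted window may run past the end of the gene. BrU density is a deposited score, the read density over the first 3 kb of each gene. It was made from BrU-seq reads trimmed, aligned with STAR (a read with several alignments kept at 1) and counted with HOMER 4.8.2. The paper states default HOMER settings for this count and names stranded counts only for its profiles around start sites. Whether the count used strand is not stated outright. The first 3 kb of 156 of the 1535 genes (10.2%) overlap a gene on the opposite strand. All 5579 positive values are whole multiples (within 0.01 of a step) of 0.0433, the smallest of them. If 1 step is 1 read, the 1535 genes hold at least 347 reads each, a counting error of 5.37% at the lowest. Each is the authors' value with no SD, the number and depth of the libraries behind it are not given in the sources used here, and no test was run. Per-sample columns left unused numbered 0.

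Symbols, types, exons and neighbours came from GENCODE v44, in which all 1535 genes matched by identifier, 1483 with the start and end of a transcript; sequence came from the GRCh38 genome. RefSeq promoters of GRCh38 had the same start for the 5 genes whose sequences are printed. Python 3.11.15, pandas 2.3.3 and scipy 1.17.1 were used, and the functions were tested on simulated data. Values within 1e-06 of 0 were taken as 0. The genes and lists were chosen with earlier results of these data known. Named are the 12 highest genes (1 of them is not reported here), those beside the cut, the shortest and the longest, the closest pairs, the 3 highest of each list with at least 3, and all genes of the repair and PAF1 complex lists; genes named for another reason were chosen after their values were seen. The alternatives were other BrU cuts, annotated lengths, autosomes only, wider spacing, protein-coding genes only, other windows around the start, and, added after the data were seen, genes whose first 3 kb overlap no other annotated gene.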

Additional observations from a re-analysis of the deposited data

How the results depend on the processing

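No paired analysis was possible because the deposited list holds no value of a single library. Of 95 alternative values for 11 results, 85 stayed within the counting interval of the reported value (within 1.5 times for the number of genes) and 10 moved. The median BrU density became 74.3 with the 2500 genes of highest BrU, 54.1 with the 3500 highest and 76.1 with a BrU of at least 30. The protein-coding share became 95.8%, 91.5% and 96.0% under the same settings, in that order. It was also 96.0% in genes whose first 3 kb overlap no other annotated gene, a setting added after the data were seen. With a window of 250 bases before to 50 after the start, the TATA box share became 5.73%, the CCAAT box share 39.2% and the ETS site share 22.3%, and the order of the length classes was the same for these 3 motifs. With 1 value per gene, no difference between genes can be set against replicate error, and genes whose first 3 kb overlap another gene (256 of 1535) may share its reads.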
